A study of Homo sapiens with 2 samples.

Results

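Imprinted genes are transcribed from a single parental copy, the other being silenced by DNA methylation laid down in the egg or the sperm. Their marks are kept through the early embryo, and they are known to drift in cultured human pluripotent cells, where gains and losses of methylation can be inherited by all descendants of a cell. The 3′ tags counted here do not tell the parental copies apart, so levels are given and allelic origin is not. The 10 imprinted genes MEG3, DLK1, H19, IGF2, PEG10, PEG3, SNRPN, MEST, NNAT and ZDBF2 were taken by symbol. Of these, 9 had a row in the deposited gene list of 33538 genes, and H19 was not analysed here. IGF2 had 2 rows. In all, 7 members reached 1 unique molecular identifier (UMI) per 1000000 (CPM) in either library and entered the counts below, among 13523 genes that did so.

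The data were single-cell RNA-seq libraries of H1, an established human embryonic stem cell (hESC) line kept in mTeSR1, treated with 50 ng/ml BMP4 for 48 h according to the sample tags and titles. The treatment text of the WT sample gives 1 hour instead, and 48 h was taken from its tag and title; had it been 1 hour, genotype and time could not be told apart in any ratio here. The WT library held unmodified H1 cells. The GATA3 KO library held KO-GATA3-06, an H1 clone in which Cas9 had been directed at GATA3, a transcription factor induced early by BMP4, and which descends from a single-cell line with an inducible Cas9 cassette. Genotype, clone and cassette therefore cannot be told apart, and with 1 library per group no test was run. All intervals are 95% and cover counting error only, since UMIs of 1 library say nothing of the spread between cultures.

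After cells with over 7500 detected genes or over 25% mitochondrial UMIs were left out, 2519 of 3802 WT and 4450 of 6221 GATA3 KO cells remained, with a median of 44415 and 43131.5 UMIs. They held 99587274 and 175285931 UMIs in all, so that 3 UMIs, taken as the floor for a gene at 0, were worth 0.0301 and 0.0171 CPM. Only 5 cell barcodes were found in both sets of kept cells. SOX2, NANOG and POU5F1, markers of pluripotent cells, summed to 1143 CPM in WT and 1924 CPM in GATA3 KO. Transcripts of the markers of the labelled line were thus still plentiful after 48 h. The sum does not give the number of pluripotent cells. GATA3 transcript itself stood at 12.7 CPM in WT and 10.9 CPM in GATA3 KO. A 3′ tag need not lie in the edited stretch, and this level does not check the genotype. Cells were sorted by marker genes after each was thinned to 10000 UMIs, which 2173 WT and 4038 GATA3 KO cells reached and 346 and 412 did not. Cells with 2 or more UMIs of MIXL1, EOMES and TBXT, markers of the primitive streak, made up 30.8% of WT and 1.76% of GATA3 KO cells. Those with as many of TFAP2A, HAND1 and ISL1, markers of amnion-like cells, made up 5.06% and 9.76%. Cells with SOX2 and neither of these sets made up 34.0% and 73.6%, and cells with none of them 28.8% and 14.7%. Cells with both of the first sets, 1.38% and 0.173%, were left aside. These 4 groups are called the streak, amnion, SOX2 and none groups. The libraries thus differed widely in their mix of cells, and each member was compared inside the groups as well as over all cells. The groups themselves did not hold like cells in both libraries, for SOX2 stood at 43.8 CPM in the streak group of WT and 145 CPM in that of GATA3 KO. POU5F1 stood at 793 CPM even in the amnion group of WT. NANOG was lower in GATA3 KO in the SOX2 group, 54.9 against 74.1 CPM, and in the none group, 67.3 against 81.8 CPM. It was higher in the streak group, 138 against 80.9 CPM, and in the amnion group, 26.9 against 22.8 CPM.

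Of the members, SNRPN and MEST were both lower in GATA3 KO in all 4 groups, and their promoters are shown for that reason. RefSeq promoter windows were found for MEG3, SNRPN, MEST and ZDBF2, and none was read for DLK1, IGF2, PEG10, PEG3 or NNAT. From each gene's windows the 250 bases before a transcription start with the most CpG sites, and free of annotated exons, were taken on GRCh38.p14, here printed 5′ to 3′ with CpG sites, the bases at which imprinted methylation is laid, in capitals. The MEST window lies at chr7:130491835-130492084 and the SNRPN window at chr15:24956050-24956299, both on the plus strand.
MEST: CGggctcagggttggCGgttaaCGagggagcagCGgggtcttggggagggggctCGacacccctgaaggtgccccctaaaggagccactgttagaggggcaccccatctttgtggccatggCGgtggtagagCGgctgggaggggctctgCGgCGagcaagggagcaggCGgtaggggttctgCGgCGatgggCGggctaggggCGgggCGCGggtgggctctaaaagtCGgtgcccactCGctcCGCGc
SNRPN: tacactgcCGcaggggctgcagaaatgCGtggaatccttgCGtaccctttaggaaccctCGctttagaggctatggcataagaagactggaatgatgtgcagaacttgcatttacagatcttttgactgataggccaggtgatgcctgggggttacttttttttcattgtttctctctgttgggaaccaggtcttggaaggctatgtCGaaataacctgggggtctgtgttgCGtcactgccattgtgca
The MEST window held 20 CpG sites, a number reached by 32.4% of the 35116 promoter windows in the table. The SNRPN window, before one of the downstream starts of the gene, held 6, against a median of 11 over all windows. It does not stand for the gene as a whole. The SNRPN window at chr15:24954737-24954986 held 12 but overlapped an annotated exon and was not taken. The motif AGATAA, or TTATCT on the other strand, which GATA factors bind, occurred in 1 of the 14 windows of members and in 9.17% of all windows. That 1 was a further SNRPN window, at chr15:24862722-24862971.

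PEG3 (ENSG00000198300, chr19:56810077-56840728, minus strand) encodes a large zinc finger protein and is normally read from the paternal copy. In the kept WT cells it had 584 UMIs, or 5.86 CPM (5.40 to 6.36). In the kept GATA3 KO cells it had 0 UMIs. The difference did not rest on the choice of cells, for the 3802 deposited WT cells held 1244 UMIs of PEG3 and the 6221 deposited GATA3 KO cells again held 0. Against the floor of 3 UMIs in the GATA3 KO library, PEG3 was at least 343-fold lower there. At 10000 UMIs per cell, 122 of 2173 WT cells, or 5.61% (4.68 to 6.67), had a UMI of PEG3. None of 4038 GATA3 KO cells did, which allows a share of up to 0.0913%. Of 9407 genes with at least 5 CPM in WT, PEG3 was the single gene with 0 UMIs in GATA3 KO, a share of 0.0106%. ZNF736, just under this limit at 4.87 CPM in WT, also had 0 UMIs in GATA3 KO. No gene of at least 5 CPM in GATA3 KO had 0 UMIs in WT.

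**Figure D1:**
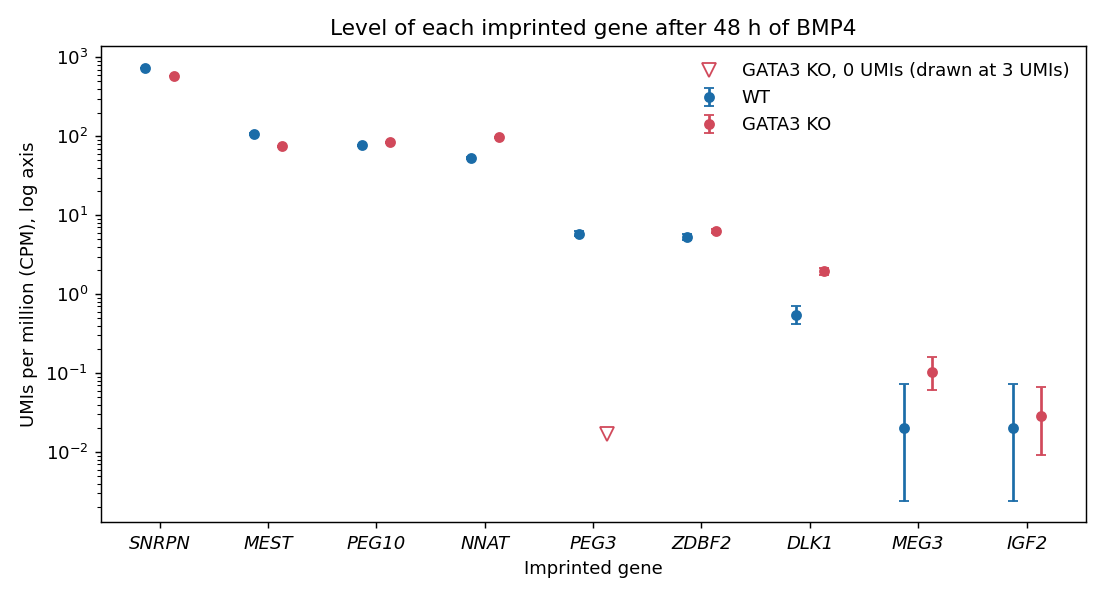
Level of each imprinted gene in the WT (blue) and GATA3 KO (red) libraries, in CPM on a log axis, with exact Poisson 95% intervals for counting error. The open triangle marks PEG3, which had 0 UMIs in GATA3 KO and is drawn at the floor of 0.0171 CPM; the IGF2 point is the row ENSG00000167244.

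The difference was seen in each lineage group. In WT, PEG3 stood at 5.86 CPM in the streak group, 5.53 CPM in the amnion group, 6.12 CPM in the SOX2 group and 5.65 CPM in the none group. The intervals of these 4 levels overlapped, and the log2 difference between the highest and the lowest was 0.12, against a median of 0.42 over 9992 genes of at least 5 CPM. In GATA3 KO it was at 0 UMIs in every group. At a log2 ratio of -1 or below, PEG3 was the 1 member of 7 that was lower in all 4 groups, as were 0.473% of all genes.

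Inside WT, however, PEG3 was not spread evenly over cells. Of 2519 kept WT cells, 243 had 1 UMI of PEG3, 99 had 2, and 40 had 3 or more, with a highest value of 8. ZDBF2, with a like total of 526 UMIs against 584, had 390 cells with 1 UMI, 51 with 2 and 11 with 3 or more. The variance over the mean of the thinned counts was 1.21 for PEG3 and 0.964 for ZDBF2, beside a median of 1.04 over 9992 genes. The UMIs of PEG3 were thus gathered in fewer cells than those of ZDBF2.

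DNAJC15 and PUS7L were picked as genes that separated the cells with PEG3 from the rest. DNAJC15 is a mitochondrial co-chaperone whose promoter is known to be silenced by methylation in some cell lines. PUS7L is a pseudouridine synthase family member. Both were chosen after their values were seen, so the split that follows is a description. How other genes ranked is not given here. Kept cells of at least 20000 UMIs were thinned to that number and sorted by the sum of DNAJC15 and PUS7L UMIs. Of 1971 such WT cells, 1464 (74.3%) had 0, 161 had 1 and 346 (17.6%) had 2 or more, with a median depth of 48636 UMIs in the first and 49921 UMIs in the last set. PEG3 stood at 7.51 CPM (6.88 to 8.17; 530 UMIs) in WT cells with 0, at 2.97 CPM (1.89 to 4.46) in those with 1 and at 0.237 CPM (0.0647 to 0.608; 4 UMIs) in those with 2 or more. Its level was lower at each step, and the 164 WT cells with 3 to 4 UMIs and the 52 with 5 or more held none. The log2 ratio of cells without over cells with DNAJC15 and PUS7L was 2.78 for PEG3 (2.39 to 3.01).

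The split ran through every lineage group. PEG3 in WT cells without against those with DNAJC15 and PUS7L stood at 6.98 and 0.389 CPM in the streak group, and at 7.96 and 0 CPM in the SOX2 group. In the none group the levels were 7.74 and 0.398 CPM, and in the amnion group 7.07 and 0 CPM, the last from only 14 cells, whose interval reaches 5.71 CPM. The lineage groups made up like shares of both sets, with 31.3% and 28.6% of cells in the streak group and 34.3% and 35.5% in the SOX2 group.

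Among the 6 members of at least 1 CPM in either set, PEG3 was the 1 member that differed 2-fold or more between these WT cells, as did 0.195% of all genes. DNAJC15 and PUS7L were found by way of PEG3, so nothing is read from its place in this count or in that at 4-fold below. SNRPN stood at 736 CPM in cells without and 728 CPM in cells with the 2 genes, MEST at 105 CPM in both sets, and NNAT at 52.7 and 54.0 CPM. PEG10 stood at 76.0 and 80.3 CPM and ZDBF2 at 5.48 and 4.45 CPM, with intervals of their ratios that include 0. At 4-fold or more, 4 of 9517 genes of at least 5 CPM in either set differed, besides DNAJC15 and PUS7L themselves. These were PEG3 and ZNF736, a zinc finger gene, which were higher in cells without them, and CALCB, which encodes a calcitonin gene-related peptide, and CCDC152, which were lower. ZNF736 went from 458 UMIs in the cells without to 3 UMIs in the cells with DNAJC15 and PUS7L. ZNF667-AS1, a long non-coding RNA that was among the nearest well-expressed genes to PEG3 on chromosome 19, stood at 34.8 and 16.6 CPM, or 1.03 apart on the log2 scale.

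In the GATA3 KO library each of these genes differed from WT in the direction of the WT cells with DNAJC15 and PUS7L. ZNF736 stood at 4.87 CPM in WT and had 0 UMIs in GATA3 KO. DNAJC15 stood at 23.9 CPM in WT and 60.3 CPM in GATA3 KO, PUS7L at 9.79 and 15.2 CPM, CALCB at 3.13 and 15.4 CPM, and CCDC152 at 7.87 and 15.9 CPM. ZNF667-AS1 stood at 30.3 and 10.3 CPM. In the WT cells with DNAJC15 and PUS7L, CALCB stood at 10.5 CPM, CCDC152 at 20.0 CPM and ZNF667-AS1 at 16.6 CPM. Each of these lies nearer to GATA3 KO than do the WT cells without the 2 genes, at 0.68, 3.60 and 34.8 CPM. The 2 sorting genes, whose levels in the WT sets are set apart by the sorting itself, did not go together. DNAJC15 in GATA3 KO lay nearer to the WT cells with them (97.7 CPM) than to those without (3.12 CPM). PUS7L in GATA3 KO lay nearer to those without (1.08 CPM) than to those with (41.9 CPM). Even GATA3 KO cells without a thinned UMI of DNAJC15 and PUS7L, 925 of 3661, had 0 UMIs of PEG3 and carried 29.7 CPM of DNAJC15 before thinning, against 3.12 CPM in the WT cells sorted in the same way. The loss of GATA3, the clone and the state of the cells it was grown from cannot be told apart here.

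**Figure D2:**
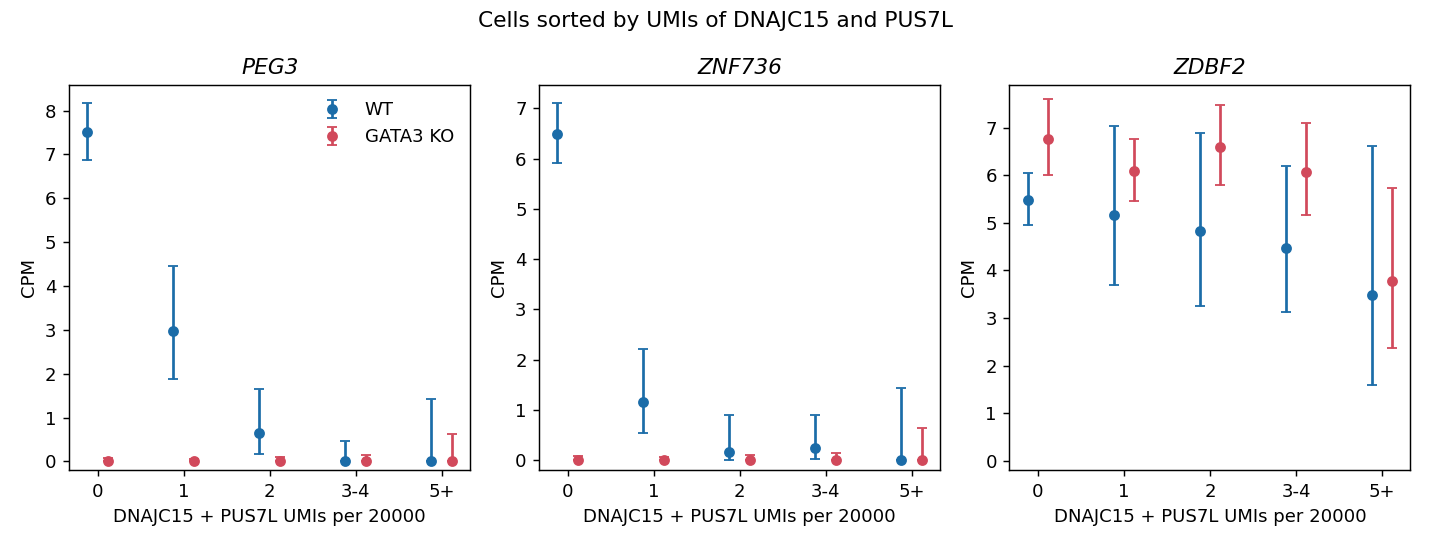
CPM of PEG3, ZNF736 and ZDBF2 in kept cells of at least 20000 UMIs, sorted along the horizontal axis by UMIs of DNAJC15 and PUS7L after thinning to 20000, with exact Poisson 95% intervals. In WT (blue), PEG3 goes from 7.51 CPM in cells with 0 to 0 in cells with 3 or more, and ZNF736 is likewise highest in cells with 0; in GATA3 KO (red) both are at 0 throughout, while ZDBF2 goes from 5.48 to 3.49 CPM in WT, with overlapping intervals, and from 6.77 to 3.78 CPM in GATA3 KO, with intervals that do not overlap.

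The well-expressed genes around PEG3 did not share its absence. Of the 10 nearest genes of at least 20 CPM, 5 on each side and up to 1565 kb away, 6 were higher in GATA3 KO, and their median log2 ratio was 0.23. ZNF667-AS1 had the lowest at -1.47. Genes under 20 CPM did not enter this count. Among these was ZNF667, for which ZNF667-AS1 is named, at 13.7 CPM in WT and 5.99 CPM in GATA3 KO (log2 ratio -1.07). Between WT cells without and with DNAJC15 and PUS7L it stood at 15.5 and 7.71 CPM. ZIM2, an imprinted gene that shares its promoter region with PEG3, had 11 UMIs in WT and 0 in GATA3 KO, too few for a level, and USP29, in the same domain, had 0 UMIs in both. NLRP2, a further imprinted gene of chromosome 19, had 14 and 0 UMIs.

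SNRPN (ENSG00000128739, chr15:24823637-24978723, plus strand) encodes a core protein of spliceosomal small nuclear ribonucleoproteins and lies in the Prader-Willi region, which is read from the paternal copy. It stood at 736 CPM in WT (731 to 741) and 575 CPM in GATA3 KO (572 to 579), and its log2 ratio was -0.35 on the CPM plus 1 scale used for all ratios. In the SOX2 group it stood at 863 and 612 CPM, in the none group at 739 and 533 CPM, in the streak group at 654 and 532 CPM, and in the amnion group at 431 and 380 CPM. SNRPN was thus lower in GATA3 KO in each group, by 0.50 in the SOX2 group and by 0.18 in the amnion group on the log2 scale. It was highest in the SOX2 group and lowest in the amnion group in both libraries. Nearly every cell had it, with 99.6% of WT and 99.2% of GATA3 KO cells at 10000 UMIs.

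Other genes of that domain differed in both directions, by less than 2-fold on this scale. PWAR6, a non-coding RNA downstream of SNRPN, stood at 180 CPM in WT and 146 CPM in GATA3 KO, and its log2 ratio of -0.56 in the SOX2 group was near that of SNRPN, while in the amnion group it was 0.03. SNURF, whose transcript overlaps that of SNRPN so that reads of the pair may be split, had a log2 ratio of -0.46, but 0.65 in the amnion group from 2 and 22 UMIs. NDN, which encodes necdin, had -0.19 over all cells and 0.21 in the streak group, and MAGEL2, a relative of NDN, had -0.51 at 1.23 CPM in WT. UBE3A, the ubiquitin ligase of the neighbouring Angelman region, had -0.12. ATP10A, a phospholipid transporter gene beyond UBE3A, was higher in GATA3 KO, at 0.482 CPM in WT and 1.03 CPM in GATA3 KO, with a log2 ratio of 0.46 (0.28 to 0.62). MKRN3 had 0 UMIs in both. Of the 9 well-expressed neighbours within 4366 kb, 2 were higher in GATA3 KO and their median was -0.19.

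MEST (ENSG00000106484, chr7:130486171-130506465, plus strand), a paternally read gene of the alpha/beta hydrolase family known as a mark of early mesoderm in the mouse, stood at 107 CPM in WT (105 to 109) and 74.5 CPM in GATA3 KO (73.2 to 75.8). The log2 ratio was -0.52. In WT it ranged from 97.3 CPM in the streak group to 121 CPM in the SOX2 group, and in GATA3 KO from 71.1 to 75.0 CPM over the same groups. All 4 levels in WT lay above all 4 in GATA3 KO, and the ratios ran from -0.45 in the streak group to -0.68 in the SOX2 group. At 10000 UMIs, 64.3% of WT and 51.6% of GATA3 KO cells had a UMI of MEST, a difference of -12.7 points (-15.2 to -10.1). With the groups of GATA3 KO weighted to their shares in WT, the log2 ratio was -0.54. COPG2, which meets the end of MEST from the opposite strand, stood at 19.9 and 17.4 CPM, and KLHDC10, on the other side of MEST, at 14.0 CPM in both libraries.

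NNAT (ENSG00000053438, chr20:37521206-37523690, plus strand), neuronatin, is a small membrane protein of developing neural tissue. Its level was 53.0 CPM in WT (51.6 to 54.5) and 96.8 CPM in GATA3 KO (95.4 to 98.3), which is 0.86 on the log2 scale. In the SOX2 group the levels were 70.5 and 108 CPM, in the none group 52.0 and 81.1 CPM, in the streak group 39.2 and 54.1 CPM, and in the amnion group 29.9 and 47.8 CPM. NNAT was higher in GATA3 KO in each, by 0.45 to 0.66, which is less than over all cells. Both libraries had their highest level in the SOX2 group, which holds far more of the GATA3 KO cells. With the groups weighted to their WT shares the ratio was 0.59 in place of 0.87 over the same cells. The share of cells with NNAT at 10000 UMIs was 37.4% in WT and 57.9% in GATA3 KO, 20.5 points higher (17.9 to 23.1). NNAT lies within an intron of BLCAP, a gene imprinted in brain and read on the other strand, which stood at 24.2 CPM in both libraries. The summed level of 7 neuron markers was 4.85 CPM in WT and 5.49 CPM in GATA3 KO, with 4 of 7 under 1 CPM in both, and their part in the NNAT level was not tested.

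**Figure D3:**
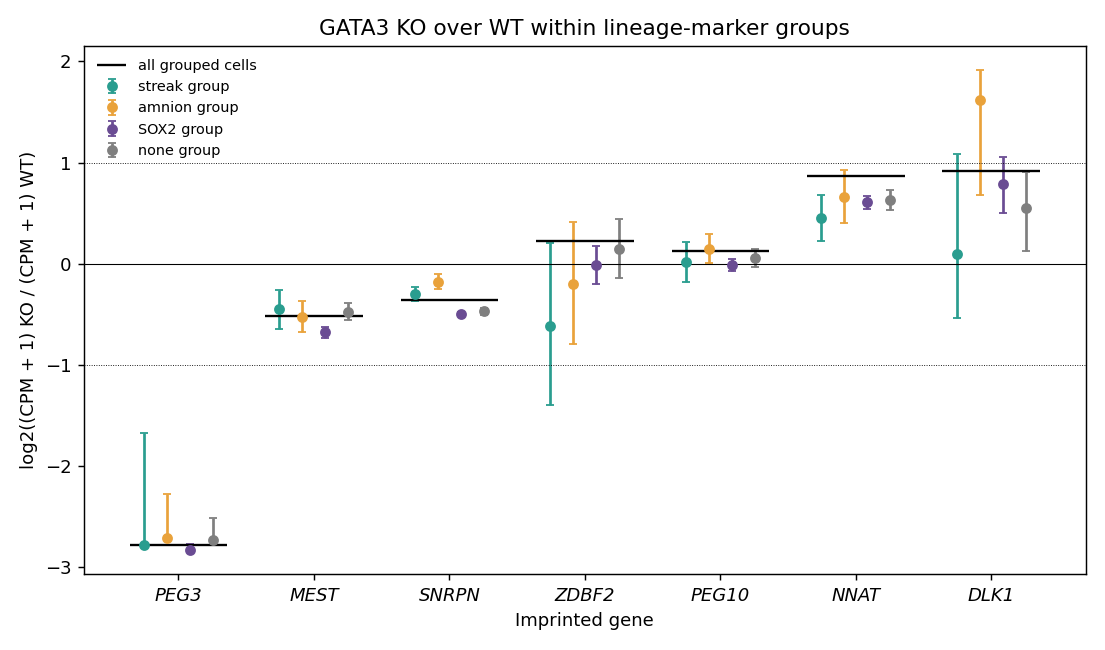
log2 ratio of GATA3 KO over WT, with 1 CPM added to each level, for the 7 members of at least 1 CPM in the 4 lineage-marker groups (colours), with exact binomial 95% intervals; black lines mark all grouped cells together and dotted lines a 2-fold difference. PEG3 lies near -2.78 in every group, a value set by the 1 CPM added since GATA3 KO is at 0, MEST and SNRPN lie below 0 in all 4, NNAT lies above 0 in all 4 but below its value over all cells, and the groups of ZDBF2 and PEG10 lie about 0.

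**Figure D4:**
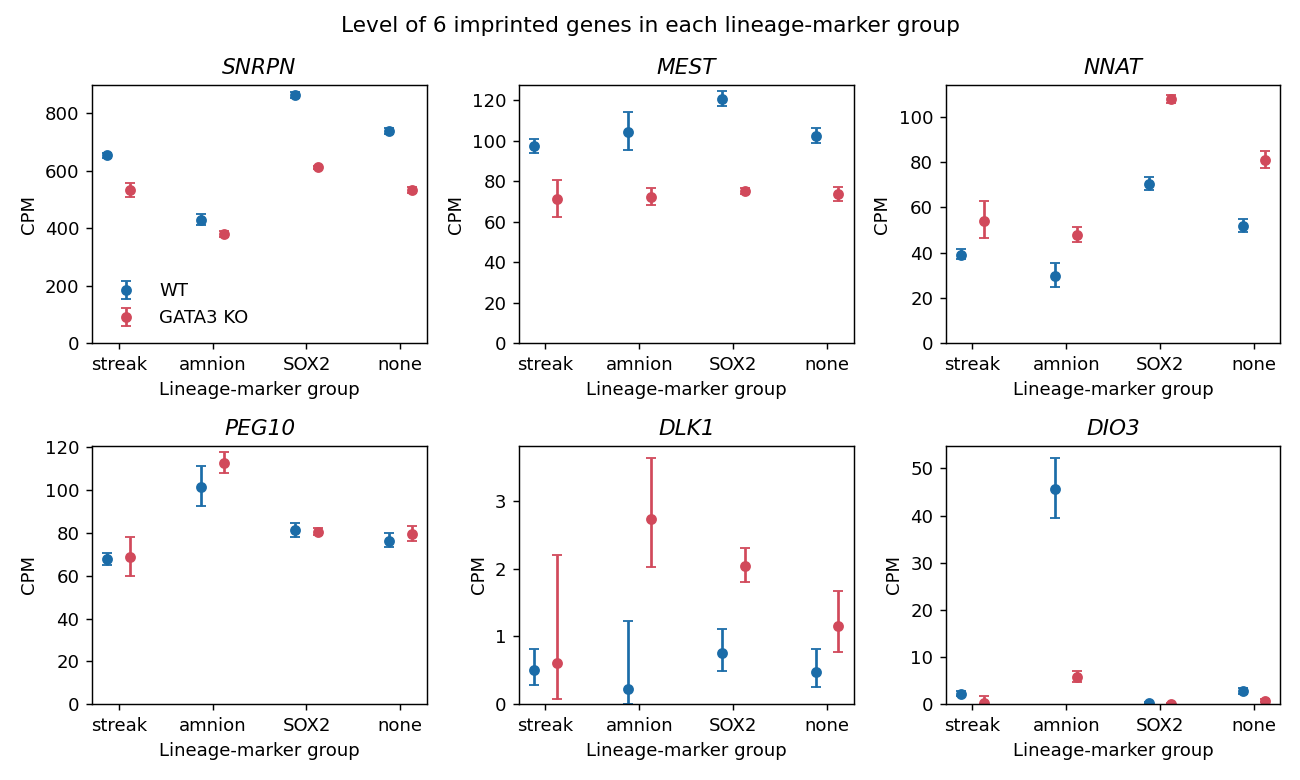
CPM of SNRPN, MEST, NNAT, PEG10, DLK1 and DIO3 in the streak, amnion, SOX2 and none groups of WT (blue) and GATA3 KO (red), with exact Poisson 95% intervals. SNRPN and NNAT are highest in the SOX2 group and lowest in the amnion group in both libraries, PEG10 is highest in the amnion group, and DIO3 reaches 45.6 CPM in the amnion group of WT and 5.88 CPM in that of GATA3 KO.

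DLK1 and MEG3 form an imprinted pair on chromosome 14 in which DLK1, a membrane ligand that acts against Notch signalling, is read from the paternal copy and the non-coding RNA MEG3 from the maternal copy. Loss of MEG3 is a known mark of aberrant imprinting in pluripotent lines. MEG3 (ENSG00000214548, chr14:100779410-100861031) was very low in both libraries but not alike, with 2 UMIs in WT and 18 UMIs in GATA3 KO, or 0.0201 and 0.103 CPM. MEG8, a further maternal transcript of the domain, had 33 UMIs in WT and 30 UMIs in the larger GATA3 KO library. At 0.331 and 0.171 CPM it was lower in GATA3 KO, with a log2 ratio of -0.18 (-0.33 to -0.04). MEG9, also maternal, had 0 and 4 UMIs, and RTL1, a paternally read gene, had 0 UMIs in both. DLK1 (ENSG00000185559, chr14:100725705-100738224) stood at 0.552 CPM in WT (0.416 to 0.719; 55 UMIs) and 1.95 CPM in GATA3 KO (1.74 to 2.16; 341 UMIs). The log2 ratio was 0.92 with 1 CPM added, which understates a gene this low, and the ratio of the levels themselves was 3.52. The share of cells with a UMI at 10000 UMIs was 0.552% (12 cells) in WT and 1.76% (71 cells) in GATA3 KO.

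The higher DLK1 level in GATA3 KO was carried in large part by few cells. Among 4450 kept cells, 18 had 3 or more UMIs, up to 19 in 1 cell, and held 38.7% of all its UMIs, while no WT cell had more than 2. LHX5, a LIM homeobox factor of the forebrain, and its antisense partner LHX5-AS1 were picked as genes higher in the cells with DLK1. Both were picked after the values of DLK1 were seen, so the comparison is a description. The rank of other genes is not given here. In cells thinned to 20000 UMIs, 26 of 3661 GATA3 KO cells and 0 of 1971 WT cells, which allows up to 0.187%, had 2 or more UMIs of the pair. These 26 cells held 117 of 301 DLK1 UMIs, or 38.9%, and 0.560% of UMIs of all genes. DLK1 stood at 125 CPM in them (104 to 150), and at 1.11 CPM (0.954 to 1.28) in the 3605 GATA3 KO cells without LHX5, still above 0.568 CPM (0.427 to 0.741) in WT cells without it.

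Other members were also higher in the 26 cells with LHX5. There, 4 of 7 members of at least 1 CPM were 2-fold or more higher than in GATA3 KO cells without LHX5, and 8.19% of all genes were. One of the 4 is DLK1, by which LHX5 was found, so nothing is read from this count; the others were MEG3, from 4 UMIs, ZDBF2, from 13 UMIs, and NNAT. NNAT stood at 249 against 95.5 CPM and ZDBF2 at 13.9 against 6.23 CPM. MEG3 had 11 UMIs in the cells without LHX5, which makes 4.28 against 0.0663 CPM. MEST stood at 133 against 73.9 CPM, PEG10 at 120 against 83.1 CPM, and SNRPN was lower, at 430 against 575 CPM. PEG3 was at 0 UMIs there too. The cells had 41.7 CPM of PAX3 and 98.5 CPM of LMO1, both factors of the early nervous system, 485 CPM of SOX2 and 8.56 CPM of NANOG, and a lower median depth of 32443 against 46281 UMIs. Their small number leaves intervals wide, such as 7.41 to 23.8 CPM for ZDBF2.

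DLK1 was higher in the amnion group of GATA3 KO as well, at 2.74 CPM from 48 UMIs against 0.221 CPM from 1 UMI in WT, and in the SOX2 group, at 2.04 against 0.753 CPM. In the none group it stood at 1.16 against 0.477 CPM, a direction that turned to a log2 ratio of -0.10 when 1 UMI of a marker set was enough. In the streak group it stood at 0.608 CPM from 2 UMIs and 0.504 CPM from 16 UMIs, which was not a detectable difference at this depth. DIO3, the third coding gene of this domain and the enzyme that inactivates thyroid hormone, went the other way. Its level was 4.79 CPM in WT and 0.799 CPM in GATA3 KO (log2 ratio -1.69). It was highest in the amnion group, which held 206 of 477 UMIs of the kept cells in WT and 103 of 140 in GATA3 KO. There it stood at 45.6 CPM in WT (39.6 to 52.2; 31.8% of cells) and at 5.88 CPM in GATA3 KO (4.80 to 7.13; 3.81% of cells). The markers of the amnion group differed between the libraries too, from 73.0 CPM in WT to 21.8 CPM in GATA3 KO for ISL1 and from 179 to 112 CPM for HAND1. TFAP2A was higher in GATA3 KO, 236 against 130 CPM, as was SOX2, 82.9 against 15.5 CPM. The part of these differences in the levels of DIO3 and DLK1 was not tested. The 10 well-expressed genes around DLK1 had a median log2 ratio of 0.36.

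PEG10 (ENSG00000242265, chr7:94656325-94669695, plus strand), a gene derived from a retrotransposon and needed in the placenta, stood at 76.5 CPM in WT (74.8 to 78.2) and 83.6 CPM in GATA3 KO (82.3 to 85.0). Its log2 ratio was 0.13 over all cells and 0.03 with groups weighted to their WT shares. PEG10 was highest in the amnion group, at 102 CPM in WT and 113 CPM in GATA3 KO, and lowest in the streak group, at 67.8 and 68.7 CPM. Placental trophoblast markers summed to 4.67 CPM in WT and 9.78 CPM in GATA3 KO, nearly all from KRT7, the other 7 of 8 lay under 1 CPM in both, and their part in the PEG10 level was not tested. SGCE, which shares the PEG10 promoter region in the opposite direction, stood at 16.2 and 16.8 CPM, and PPP1R9A beyond PEG10 at 13.7 and 19.1 CPM. TFPI2, an inhibitor of serine proteases on the other side, stood at 18.4 and 13.9 CPM, with a log2 ratio of -0.38.

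ZDBF2 (ENSG00000204186, chr2:206274663-206314427, plus strand), a paternally read zinc finger gene, stood at 5.28 CPM in WT (4.84 to 5.75) and 6.32 CPM in GATA3 KO (5.95 to 6.70). Its ratio of 0.22 over all cells became -0.08 with groups weighted to their WT shares. Inside the groups it ranged from -0.61 in the streak group to 0.15 in the none group, and all 4 intervals included 0. At equal depth the shares of cells, 5.25% and 6.07%, differed by 0.821 points (-0.428 to 2.01), which was not detectable at this depth. GPR1, next to ZDBF2 in its imprinted domain, had 9 and 23 UMIs.

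IGF2 (ENSG00000167244, chr11:2129112-2158391, minus strand), the fetal growth factor, was at the limit of detection, with 2 UMIs in WT and 5 UMIs in GATA3 KO. Its second row, ENSG00000284779, had 0 UMIs in both. Further along this cluster KCNQ1OT1, the paternal non-coding RNA, stood at 29.4 and 27.4 CPM, and CDKN1C, a maternally read inhibitor of the cell cycle, at 18.3 and 23.7 CPM. PHLDA2, a maternally read gene that limits placental growth, was lower in GATA3 KO, at 23.2 and 14.5 CPM (log2 ratio -0.64). SLC22A18, a transporter gene beside it, was higher, at 3.46 and 5.39 CPM (0.52), as was KCNQ1, a potassium channel gene, at 0.392 and 0.827 CPM (0.39). NAP1L4 stood at 158 and 161 CPM and INS had 0 UMIs in both. The 7 markers of mesenchyme, a tissue known for high IGF2 and DLK1, summed to 97.6 CPM in WT and 109 CPM in GATA3 KO, and of these COL3A1, LUM and DCN lay under 1 CPM in both. Their part in the levels of IGF2 and DLK1 was not tested.

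Over all cells, 0 of 7 members were 2-fold or more higher in GATA3 KO, beside 2.06% of all genes, and 1 of 7, PEG3, was 2-fold or more lower, beside 2.27%. DLK1 passed 2-fold under 4 of 8 alternative settings, with log2 ratios of 1.12 to 1.65. Without thinning, 15.2% of WT and 0% of GATA3 KO cells had a UMI of PEG3, 88.1% and 85.3% of MEST, 70.5% and 84.0% of NNAT, 2.06% and 4.81% of DLK1, 97.0% and 96.2% of SNRPN, and 17.9% and 20.1% of ZDBF2. The median size of the log2 ratio was 0.52 for the 7 members and 0.31 for all genes. For the 36 genes of the wider imprinted list given next, it was also 0.31. In a wider list of imprinted genes, 51 of 58 symbols had a row and 36 genes reached 1 CPM, and HM13 was the single gene higher and DIO3 the single gene lower by 2-fold. HM13 (chr20:31514428-31577923), a signal peptide peptidase gene, stood at 42.5 CPM in WT and 116 CPM in GATA3 KO. It was higher in all 4 groups by 1.42 to 1.67 on the log2 scale. The cause of this difference was not tested, and it is not read as one of imprinting. Higher levels in GATA3 KO were seen for 17 of the 36 and lower levels for 19, with a median ratio of -0.01. Over all 13523 genes these were 7533 and 5990, with a median of 0.07.

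Levels also differed between the lineage groups within a library. Of 7 members, 2 differed 2-fold or more between their highest and lowest groups in WT, SNRPN and NNAT, beside 17.2% of all genes. In GATA3 KO these were 3 of 7, NNAT, ZDBF2 and DLK1, beside 15%. For ZDBF2 and DLK1 the lowest was the streak group, from only 7 and 2 UMIs. Their intervals there reach 4.38 and 2.20 CPM, so a 2-fold difference is not secure for either. The order of the groups was the same in both libraries for SNRPN at its ends, with the SOX2 group highest and the amnion group lowest, while PEG10 had the amnion group highest.

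Likeness of pattern was measured as Pearson's r of log2 levels over the 8 values of 2 libraries and 4 groups, which share their libraries. SNRPN was most like KLHL7 (r = 0.997), NPW and C1orf54, and NNAT was most like NECTIN1 (r = 0.990), ETHE1 and PDPR. MEST was most like RBX1 (r = 0.988), ITGB3BP and ATG12, and PEG10 like ADD3 (r = 0.951), a POLR2J3 row and LEPROT. PEG3 was most like RPS10 (r = 0.999), RPS21 and LSM5. Since PEG3 had no UMIs in any GATA3 KO group and was nearly level over the WT groups, its r measures little but the library difference. A lower level of these genes in GATA3 KO follows from such an r. Ribosomal protein genes such as RPS10 and RPS21 have near-identical copies elsewhere in the genome, and their counts are uncertain. ZDBF2 was most like EFR3A (r = 0.964), COQ5 and FBXO2.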

How the data were processed

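Libraries were made by the authors with the 10x Chromium 3′ v3 kit, and UMI counts per gene and cell were deposited per library as raw counts from Cell Ranger 3.0.2 on GRCh38, without further normalization. From these counts, cells with at most 7500 detected genes and at most 25% mitochondrial UMIs were kept, as the study's methods describe. UMIs were summed over cells and divided by the library total (CPM). Ratios were log2 of CPM plus 1, GATA3 KO over WT, with exact binomial intervals, and levels had exact Poisson and shares Clopper-Pearson 95% intervals. Shares of cells used counts thinned to 10000 UMIs per cell, and lineage-marker groups needed 2 UMIs of a marker set. With 1 library per group no test was made. Code was tested on simulated data. No doublets were removed, since Scrublet in scanpy 1.11.5 called 1 WT and 2 GATA3 KO cells, too few for the caller to have worked; removal of the highest scores, edgeR 4.0.16 TMM factors and other settings were tried as alternatives.

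Members and lists were chosen with earlier results of these data known. Named were all members, genes of the wider list past 2-fold or in a member's domain, the 5 nearest genes of at least 20 CPM on each side, and the 3 genes of most alike pattern. DNAJC15, PUS7L, LHX5 and the genes named with them were picked after their values were seen. Positions are from the GENCODE annotation of GRCh38, matched by gene identifier, and promoters from RefSeq.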

Additional observations from a re-analysis of the deposited data

How the results depend on the processing

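No paired analysis was possible because each group had 1 library. The depth limits MEG3, IGF2, ZIM2 and the streak group of GATA3 KO (71 cells). Over all cells, the 7 members kept their direction under all 8 alternatives. The number of members past 2-fold was 2 in place of 1, DLK1 joining PEG3, with all deposited cells, without an upper limit on detected genes, with a pseudocount of 0.1 CPM and with the mean of per-cell CPM. In the wider list 2 genes were past 2-fold, 1 with a minimum of 5 CPM and 4 with a pseudocount of 0.1 CPM, which added MAGEL2 and DLGAP2. Over all genes, 586 were past 2-fold, and 1084 with that pseudocount. Inside the groups, marker sets at 1 or more UMIs turned DLK1 in the none group to -0.10 and PEG10 in the amnion group to -0.024; the cause was not tested. Alternatives added after seeing the data left PEG3 higher in WT cells without DNAJC15 and PUS7L, with log2 ratios of 3.04 by DNAJC15 alone, 2.93 by PUS7L alone, 3.09 against cells with 5 or more UMIs and 2.24 without an upper limit on detected genes. DLK1 in cells with LHX5 stood at 6.30 from 4 or more UMIs and at 5.87 without that limit. The other alternatives for single genes and groups that moved a value past its counting interval left its direction as it was, or were of a ratio whose interval included 0, save the ZDBF2 ratio with groups weighted to WT shares, which went from -0.08 to 0.10 with marker sets at 1 or more UMIs.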

Other observations

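Cells with over 7500 detected genes, left out above, were 1012 in WT and 1265 in GATA3 KO. PEG3 had 649 UMIs in those of WT, or 6.61 CPM, and 0 in those of GATA3 KO. MEST stood at 117 and 69.5 CPM and NNAT at 45.9 and 89.8 CPM. DLK1 stood at 0.387 CPM (0.274 to 0.532) in WT and 2.90 CPM (2.59 to 3.25) in GATA3 KO, a log2 ratio of 1.49, and MEG3 had 2 and 20 UMIs. Among cells over 25% mitochondrial UMIs, 271 in WT and 506 in GATA3 KO, SNRPN stood at 321 and 241 CPM, and PEG3 at 11 and 0 UMIs.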
